A study of Mus musculus with 8 samples.

Results

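The library labelled IL4 was compared with the library labelled CON-1, both made from cells that were not given G-1. These are 2 of the 8 libraries of the series, and 11333 of 22173 gene symbols reached 20 counts in the larger of the pair and are called measured. At this limit, 26 symbols had exactly 20 counts in the larger library and 38 had 19. Bone marrow cells of wild-type mice were grown for 7 days in medium conditioned by L929 cells, a fibroblast line that secretes the macrophage growth factor CSF1, and so became bone marrow-derived macrophages (BMDMs). The library labelled IL4 is described as BMDMs given 20 ng/ml IL-4 for 48 h, the treatment used to make M2 macrophages. For the library labelled CON-1, called M0 here, they were left without a polarizing cytokine, and the methods give no time for that culture. The methods also list the M0 and the IL4-labelled library in different sequencing sets. IL-4, the time in culture, the sequencing set and whatever else differed between the cultures therefore cannot be told apart. A second pair, IL4-labelled and M0, was given 10 μmol/L G-1, an agonist of the estrogen receptor GPER1, in both members, and there the methods give 48 h for both. Gper1 itself had 0 counts in the IL4-labelled library and 2 in the M0 library.

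IL-4 is a cytokine of T helper 2 cells, mast cells and basophils. On macrophages it binds a receptor of IL-4Rα with the common γ chain or with IL-13Rα1, and JAK kinases then phosphorylate STAT6, which binds DNA as a dimer. In mouse macrophages this response is known for the arginase gene Arg1, the secreted proteins Retnla and Chil3, the lectins Mrc1, Clec10a and Mgl2, the chemokines Ccl17, Ccl22 and Ccl24, and the transcription factor Irf4. Interferon-γ with LPS gives the opposed state, with interferon-stimulated genes, inflammatory cytokines and, through the regulator Ciita, MHC class II molecules. In mice IL-4 also raises MHC class II on many antigen-presenting cells.

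RNA of 3 samples was pooled for each library, so each group has 1 library. Nothing below has a replicate check, and a difference describes these pools alone. The counts summed to 40671596 in the IL4-labelled library and 35027179 in the M0 library. Folds were taken after scaling with edgeR's TMM factors, and each has an exact binomial 95% interval from its counts, which covers counting error only. Where a library had 0 counts of a gene, 3 counts stood in for it as a floor, and its fold depends on that floor. Across genes the log2 fold went with GC content (Spearman rho = -0.317 over 11121 genes with a known transcript) but hardly with transcript length (rho = 0.013). The fifth of genes with the lowest GC content had a median log2 fold of 0.24 and the fifth with the highest one of -0.26, against 0.02 over all measured genes. For some lists the values without this trend are given too, here or with the alternatives at the end. How much the GC trend contributes to any single gene was not tested. Exons of H2-DMa, Csf1r, Tapbp, Tap1, Ccnd1, Ska3, Ccne2 and Gas6 overlap those of a neighboring gene, and since the counting is not stated to use strand, reads there cannot be told apart.

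The classical IL-4 markers went against the label of the library, and whether the label is right was not tested. Of 28 listed markers, 16 were measured, none was at least 2-fold higher in the IL4-labelled library, and 7 were at least 2-fold lower, against 7.70% of all measured genes higher and 6.64% lower. Their median log2 fold was -0.83, against 0.02 over all genes. Arg1 had 7 counts in the IL4-labelled library and 1 in the M0 library, and Retnla, Chil4, Ccl17 and Rnase2a had 0 in both. Ccl22 had 0 counts in the IL4-labelled library and 1 in the M0 library. These genes were near or under the level that a count of 0 allows, which is 3 counts, or 0.0738 CPM (counts scaled to the library total) in the IL4-labelled library and 0.0856 CPM in the M0 library. Arg1 was present elsewhere in the series, with 2569 counts in the library of macrophages given LPS and interferon-γ. In all, 15 of the 28 markers had under 20 counts in the IL4-labelled library and 9 had 0.

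The C-type lectin Mgl2 (CD301b) had 14 counts in the IL4-labelled library and 649 in the M0 library, and was 58.5-fold lower (95% interval 34.6 to 107.6). Clec10a (CD301a), its close paralog, had 1363 and 4338 counts in the IL4-labelled and M0 libraries and was 4.02-fold lower (3.78 to 4.27). Irf4, the transcription factor that acts with the demethylase JMJD3 in the IL-4 response, had 212 counts in the IL4-labelled library and 686 in the M0 library, and was 4.08-fold lower (3.495 to 4.785). The chitinase-like protein Chil3 had 9 counts against 68 in M0, and the ribonuclease Ear2 had 0 against 27. Both belong to families of near-identical copies, so their counts may be shared with relatives. Egr2 with 147 counts in the IL4-labelled library and 262 in M0, and the hemoglobin receptor Cd163 with 430 and 760, were the other markers at least 2-fold lower. The dendritic cell lectin Cd209a had 0 counts against 17, the PD-1 ligand Pdcd1lg2 0 against 14, and the amino acid oxidase Il4i1 0 against 4. Alox15 had 10 counts in the IL4-labelled library against 19 in M0. In the other direction Cdh1 had 6 against 0 and Flt1 8 against 4. Klf4, with 589 against 665, and Pparg, with 409 against 584, were measured and under the 2-fold limit.

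Mrc1, the mannose receptor CD206, was abundant, and its fold pointed upward. It had 188110 counts in the IL4-labelled library and 83675 in the M0 library, which is 4630 and 2390 CPM of the library totals, and was 1.78-fold higher (1.77 to 1.80), under the 2-fold limit. The transglutaminase Tgm2, with 3599 counts in the IL4-labelled library against 1961 in M0, and Il4ra, the receptor chain itself, with 12783 against 9857, were also under it. The chemokine Ccl24 had 133 counts against 144, Slc7a2, an arginine transporter, 198 against 230, and the STAT-induced inhibitor Cish 142 against 101. Among other genes of the M2 panel of the study, Tgfb1 had 17077 counts in the IL4-labelled library and 22678 in M0, 1.68-fold lower (1.64 to 1.71), and the cytokine Il10 had 130 and 181, 1.76-fold lower (1.40 to 2.22). The plot of the 28 markers shows Mgl2, Clec10a and Irf4 to the left of their M0 level and Mrc1 to the right of it.

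**Figure D1:**
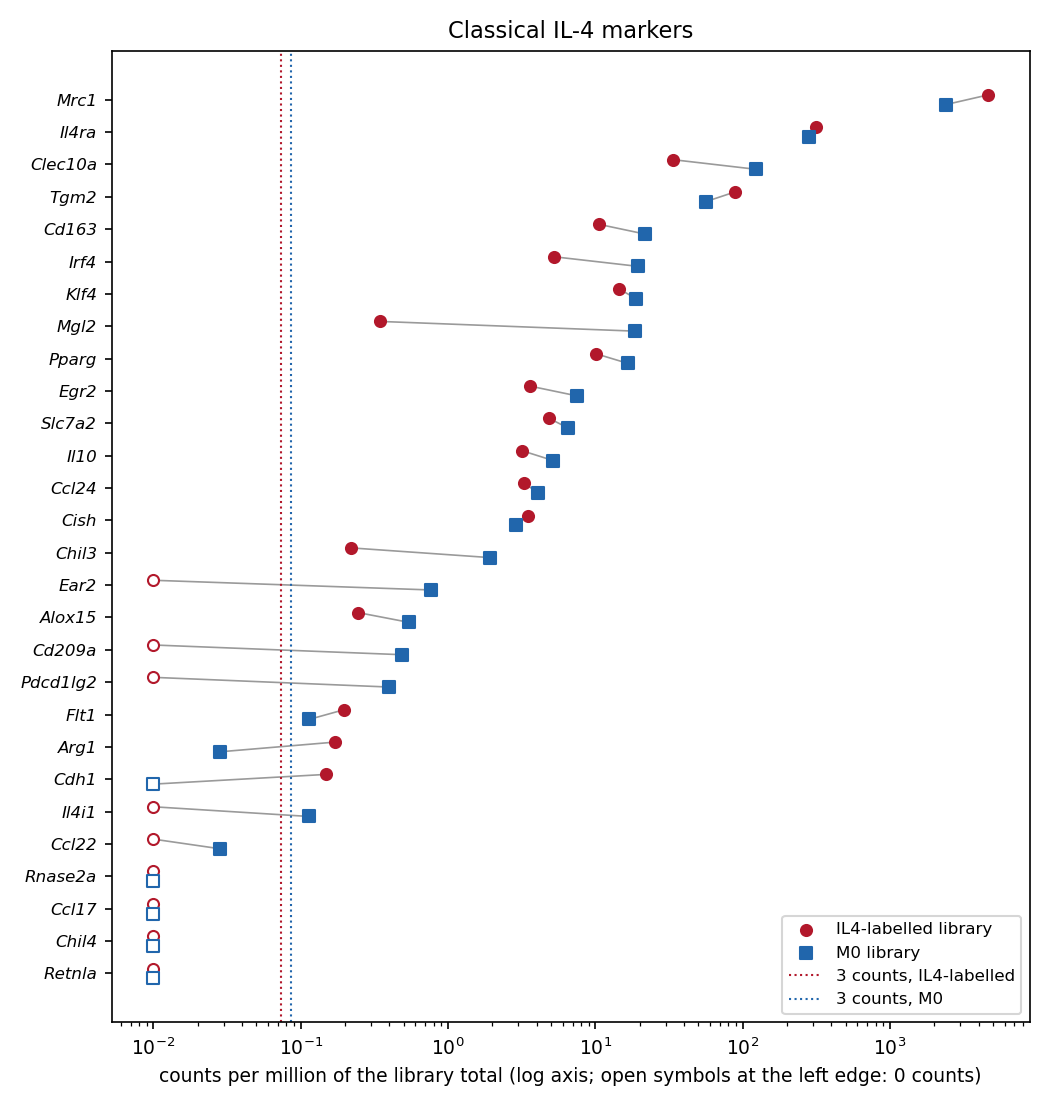
CPM by library total (log axis) of 28 classical IL-4 markers in the IL4-labelled library (circles) and the M0 library (squares), 1 pooled library each; dotted lines mark 3 counts and open symbols 0 counts. Retnla, Chil4, Ccl17 and Rnase2a are at 0 in both libraries, and Mrc1 lies at 4630 CPM in the IL4-labelled library and 2390 CPM in the M0 library.

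The receptor and signal genes for IL-4 were present. Of 22 listed genes of this pathway 20 were measured, 0 were at least 2-fold higher and 2 were lower, with a median log2 fold of -0.16. The 2 lower genes encode the feedback inhibitors Socs1, with 31 counts in the IL4-labelled library and 71 in M0, and Socs3, with 271 and 444. Il13ra1, the other chain of the type II receptor, had 715 counts against 983. Il4 had 1 count in the IL4-labelled library and 0 in M0, and Il13 had 0 in both.

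A STAT6 site was searched as TTC and GAA with 4 bases of any kind between them, which reads the same on both strands. In RefSeq promoter windows of GRCm38.p6, from 250 bases before to 50 after the start of transcription, 8.01% of 27025 genes hold it, and so do 3 of the 20 classical markers with an entry. These are Retnla, Ccl17 and Pdcd1lg2, each at 0 counts in the IL4-labelled library. Of the 11 measured markers with an entry 0 hold it, against 6.59% of measured genes. The sites of Retnla, Ccl17 and Pdcd1lg2 are shown because these genes are textbook IL-4 targets that gave no counts in the IL4-labelled library. The matching letters are in capitals, 5′ to 3′, from chr16:48842429-48842493, chr8:94810264-94810328 and chr19:29410802-29410866, all on the plus strand. The match says only that these letters are there.
Retnla: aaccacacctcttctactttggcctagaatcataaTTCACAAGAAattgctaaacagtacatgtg
Ccl17: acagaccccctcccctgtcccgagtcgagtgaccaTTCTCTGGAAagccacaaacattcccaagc
Pdcd1lg2: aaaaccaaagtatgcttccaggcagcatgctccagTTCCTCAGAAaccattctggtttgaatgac

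Beside these markers, of which 15 of 28 had under 20 counts in the IL4-labelled library, the pair differed in many other genes. Of the 11333 measured genes, 873 (7.70%) were at least 2-fold higher in the IL4-labelled library and 753 (6.64%) were at least 2-fold lower. Scaled by total counts instead, 1050 were higher and 633 lower, since that scaling put the median log2 fold over all genes at 0.14, against 0.02 with TMM. At 10-fold, 80 genes were higher and 78 lower. Among measured genes, 15 had 0 counts in the IL4-labelled library and 22 had 0 in the M0 library. In the plot of all measured genes, the MHC class II and interferon-stimulated genes lie mostly under 0, with 7 of 14 and 18 of 37 past 2-fold, and 30 of 35 mitosis genes lie over the 2-fold line.

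**Figure D2:**
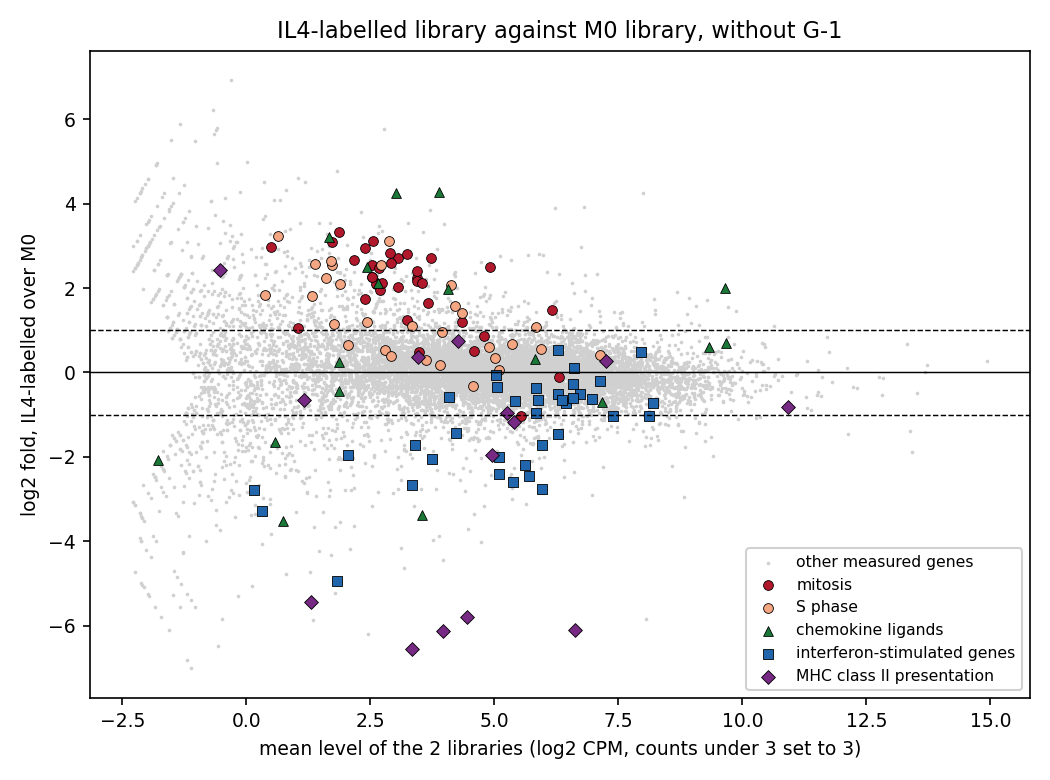
Log2 fold of the IL4-labelled over the M0 library against the mean level of both libraries (log2 CPM) for 11333 measured genes, with 5 gene lists marked and dashed lines at 2-fold. The mitosis genes have a median log2 fold of 2.23 and the interferon-stimulated genes one of -0.97.

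The genes with the largest folds upward had few counts in M0. Ltbp2, a matrix protein that binds fibrillin, had 306 counts in the IL4-labelled library and 2 in M0, a ratio of 121 with an interval of 33.3 to 1006. Ch25h, the enzyme that makes 25-hydroxycholesterol, had 187 counts against 2 and a ratio of 74.1 (20.2 to 616.4). Kap, an androgen-regulated protein known from mouse kidney, had 208 counts against 0, and Lyve1, the hyaluronan receptor of lymphatic vessels and of some tissue macrophages, 202 against 0. With 3 counts standing in for 0, Kap was 54.95-fold higher and Lyve1 53.4-fold higher. Cd55, which speeds the decay of complement convertases, had 2125 counts in the IL4-labelled library and 31 in M0 and was 54.3-fold higher (38.2 to 80.2). Rgs7bp, which anchors a regulator of G protein signaling, had 191 counts against 3, and the atypical cadherin Fat3 had 238 against 6. Klra2, a Ly49 receptor, had 258 counts against 9 and was 22.7-fold higher (11.8 to 50.2); the Ly49 genes are near-identical copies. Adgb, the gene of androglobin, had 788 against 23, and Dab2ip, a Ras GTPase-activating protein, had 429 against 14. Of the other genes of the 15 largest folds, Depdc1a, Esco2 and Ska3 act in cell division, Cdkn2a inhibits it, and Trem1 is a receptor of myeloid cells.

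Downward, 5 of the 15 largest folds were of MHC class II genes, which are described below. Thbs1, the matrix protein thrombospondin-1, had 1497 counts in the IL4-labelled library and 67465 in M0 and was 56.9-fold lower (54.0 to 59.9). Vcam1, an adhesion ligand of integrin α4, had 27 counts against 1564 and was 73.1-fold lower (50.04 to 111.3). Mgll, the lipase of monoacylglycerols, had 4 counts against 182, and the lectin-like ligand Clec2i had 3 against 212, a ratio of 89.2 (30.1 to 435.8). Jaml, a junctional adhesion molecule of leukocytes, had 24 counts in the IL4-labelled library and 713 in M0, and Pianp, a ligand of PILRα, had 6 and 186. Serpinf1, the secreted factor PEDF, had 0 counts against 112 and was 47.1-fold lower with 3 counts standing in for 0. The granule protein Ltf and the calcium-binding S100a9, both markers of neutrophils, had 1 and 0 counts in the IL4-labelled library against 102 and 100 in the M0 library.

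Genes were then grouped by function or cell type in 46 lists, and the plot of the lists shows those with 10 or more measured members. The shares over all genes, 7.70% higher and 6.64% lower, are the background for each count below.

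**Figure D3:**
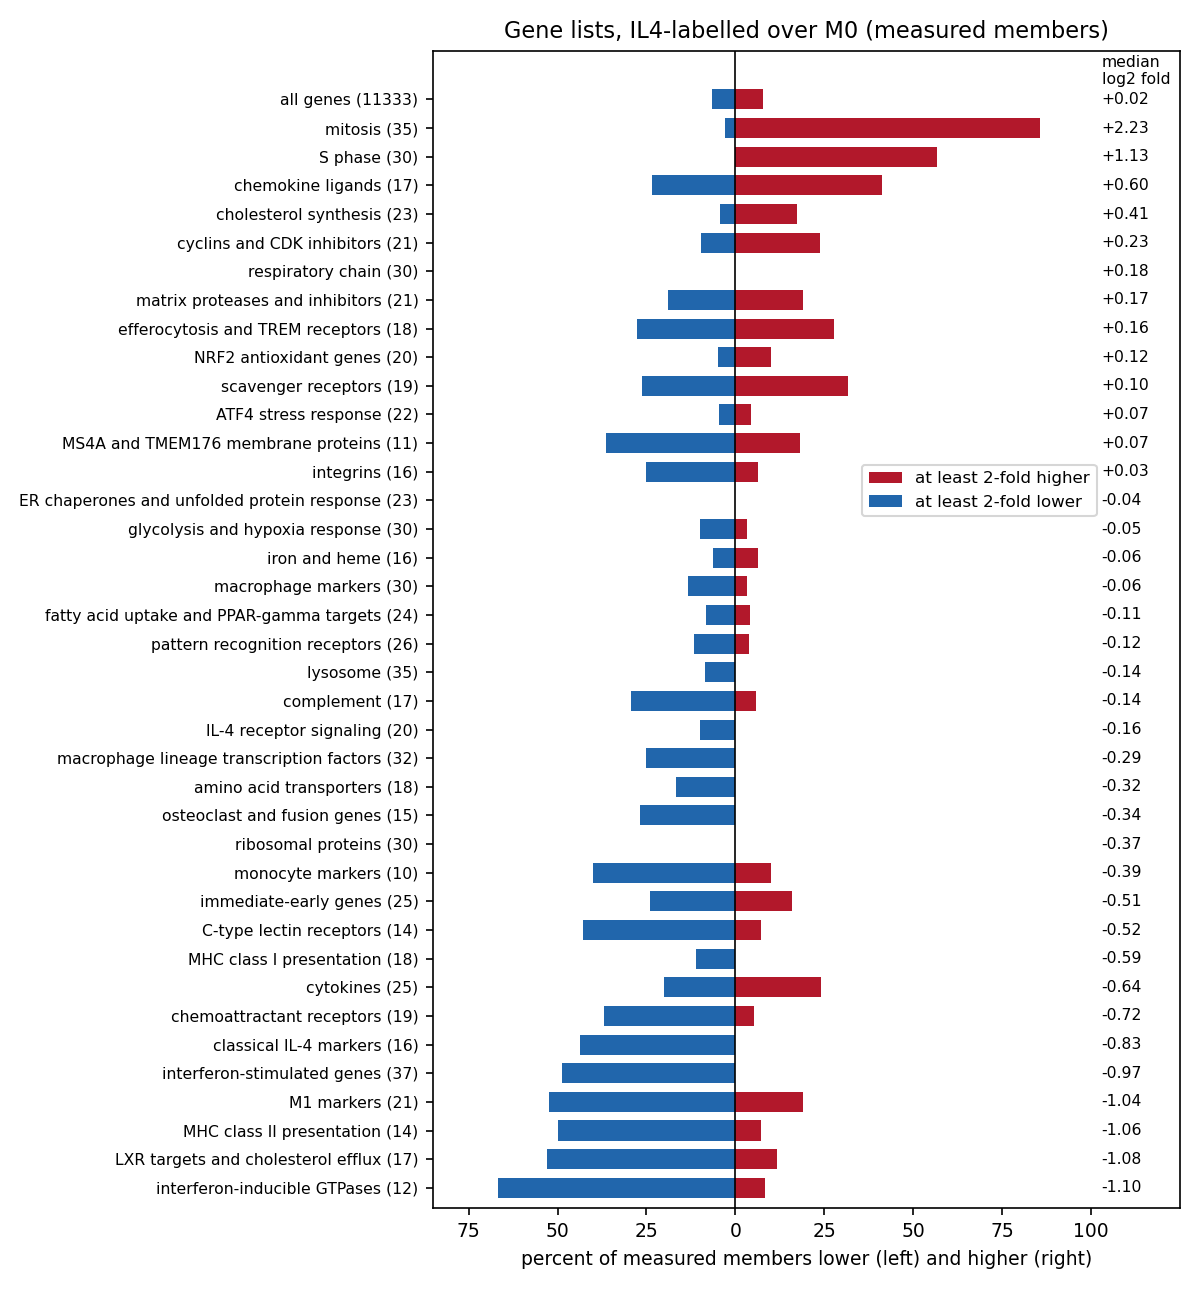
Percent of measured members of each gene list (number in parentheses) at least 2-fold higher (right) and lower (left) in the IL4-labelled library than in the M0 library, with the median log2 fold at the right edge and all 11333 genes at the top. Mitosis had 30 of 35 members higher and the interferon-inducible GTPases had 8 of 12 lower, against 7.70% and 6.64% over all genes.

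MHC class II molecules, which present peptides to CD4 T cells, were lower in the IL4-labelled library. Of 14 measured genes for class II presentation, 7 were at least 2-fold lower and 1 higher, and the median log2 fold was -1.06. The β chain gene H2-Eb1 had 44 counts in the IL4-labelled library and 3279 in the M0 library and was 94.0-fold lower (69.9 to 129.7). The α chain gene H2-Aa had 79 counts against 4373 and was 69.8-fold lower (55.9 to 88.4). Its partner H2-Ab1 had 124 against 5426 and was 55.2-fold lower (46.2 to 66.5). Cd74, the invariant chain that guides class II molecules to endosomes, had 509 counts against 27636 and was 68.5-fold lower (62.7 to 74.9). Ciita, the coactivator on which all these genes depend, had 16 counts against 545 and was 43.0-fold lower (26.2 to 75.7), though its exons overlap those of the antisense gene Dexi and the counting is not stated to use strand. The chains, their chaperone and their coactivator were all low together.

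Genes for the later steps of loading differed less. H2-DMa, which helps exchange peptides, had 673 counts in the IL4-labelled library and 2054 in M0, 3.85-fold lower (3.53 to 4.21), while H2-DMb1 had 1156 against 1785 and H2-DMb2 76 against 95. The protease Ctss, which cuts the invariant chain, had 61648 against 86257. H2-Ob, an inhibitor of loading, was the member that was higher, with 68 counts in the IL4-labelled library against 10 in M0. The costimulatory ligand Cd86, also in the class II list, had 1192 counts against 2116. It was at least 2-fold lower in the IL4-labelled library. Of 18 measured genes of class I presentation, 0 were higher and 2 lower, with a median log2 fold of -0.59. The 2 lower were Tapbp, which links class I to the peptide transporter, with 11724 counts against 24197, and Tap1, a subunit of that transporter, with 1877 against 3641.

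The promoters of class II genes share a Y box, which is a CCAAT sequence on the other strand and is bound by NF-Y. The letters CTGATTGG were searched on both strands. They stand in 4 of the 11 listed class II genes that have a RefSeq entry, against 4.7% of all 27025 genes, and in 2 of the 9 measured ones, against 6.7% of measured genes. The windows of the 2 chains with the largest folds are shown, with the Y box in capitals, 5′ to 3′ on the strand of the gene. H2-Eb1 is read from chr17:34305770-34305832 on the plus strand and H2-Aa from chr17:34287847-34287909 on the minus strand of GRCm38.p6.
H2-Eb1: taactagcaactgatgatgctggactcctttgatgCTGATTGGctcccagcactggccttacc
H2-Aa: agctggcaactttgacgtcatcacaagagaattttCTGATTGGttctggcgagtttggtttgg

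Interferon-stimulated genes were lower as a group. Of 37 measured members, 18 were at least 2-fold lower and 0 higher, 34 had a log2 fold under 0, and the median was -0.97, or -1.15 with the length and GC trend removed. Ifit1bl1, a relative of the IFIT proteins that bind viral RNA, had 27 counts in the IL4-labelled library and 657 in the M0 library and was 30.7-fold lower (20.9 to 46.9). Ifit2 had 1010 counts against 5403 and was 6.75-fold lower (6.31 to 7.23), and Ifit3 had 713 against 3398, with reads that may be shared with its copy Ifit3b. Ifi44 had 17 counts against 130, and Ifi205, a DNA-binding PYHIN protein, had 18 against 98. Rsad2 (viperin), which makes an antiviral nucleotide, had 944 counts against 4080 and was 5.45-fold lower (5.08 to 5.86). Irf7, which amplifies the type I response, had 970 counts in the IL4-labelled library and 3527 in M0, with exons that overlap Phrf1. The ubiquitin-like Isg15 had 482 against 1027. The 3 members with a log2 fold over 0 stayed under 2-fold.

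The interferon-inducible GTPases, which attack the vacuoles of parasites and bacteria, showed the same direction. Of 12 measured members, 8 were at least 2-fold lower and 1 higher, and the median log2 fold was -1.10; with scaling by total counts 5 were lower. Gbp2 had 716 counts in the IL4-labelled library and 3154 in M0 and was 5.56-fold lower (5.12 to 6.04). Gbp5, which promotes inflammasome assembly, had 315 against 1291, Gbp3 429 against 1722 and Tgtp2 84 against 313. Gbp8 was the higher member, with 68 counts against 21. The chemokine Cxcl10, which draws T cells through CXCR3, had 152 counts in the IL4-labelled library and 1251 in M0 and was 10.4-fold lower (8.77 to 12.4), though it overlaps Art3 on the other strand.

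The interferon-stimulated response element was searched on both strands as GAAA, 2 bases of any kind and GAAA again. It stands in the promoter windows of 17 of the 28 interferon-stimulated genes with an entry and of 10 of the 10 GTPase genes with one, against 3.99% of all 27025 genes. Windows are shown for 4 of the named lower genes with a match before the start site, with the match in capitals, 5′ to 3′ on the gene's strand. They come from chr19:34602043-34602107 and chr1:174031860-174031924 on the minus strand for Ifit1bl1 and Ifi205, and from chr3:142620569-142620633 and chr3:142496734-142496798 on the plus strand for Gbp2 and Gbp5.
Ifit1bl1: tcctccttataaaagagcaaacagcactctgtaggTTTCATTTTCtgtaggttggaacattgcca
Ifi205: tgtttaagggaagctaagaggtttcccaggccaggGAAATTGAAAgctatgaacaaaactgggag
Gbp2: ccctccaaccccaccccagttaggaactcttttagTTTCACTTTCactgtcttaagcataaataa
Gbp5: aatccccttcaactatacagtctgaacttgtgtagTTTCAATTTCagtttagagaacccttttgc

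Genes listed as targets of the liver X receptors (LXR) or for cholesterol efflux were mostly lower too. Of 17 measured members, 9 were at least 2-fold lower and 2 higher. The median log2 fold was -1.08, or -1.28 and 11 lower with the trend removed. The lipoprotein Apoe had 240464 counts in the IL4-labelled library and 703566 in the M0 library and was 3.69-fold lower (3.67 to 3.71). The transporter Abcg1 had 714 counts against 4897, 8.65-fold lower (7.999 to 9.374), and Abca1 had 15337 against 25781, 2.12-fold lower (2.08 to 2.16). The phospholipid transfer protein Pltp had 6920 against 42531, with exons that overlap Ctsa. The desaturases Scd1 and Scd2, which are similar in sequence, had 3 and 82 counts in the IL4-labelled library against 26 and 583 in M0. Ch25h and the transporter gene Abcg3, with 1792 counts against 271, were the 2 members that were higher.

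Sterol synthesis, which SREBP2 drives, lay on the other side. Of 23 measured members, 4 were at least 2-fold higher and 1 lower, 18 had a log2 fold over 0, and the median was 0.41. Hsd17b7 had 709 counts in the IL4-labelled library and 216 in M0, the isomerase Idi1 633 against 218, the farnesyl diphosphate synthase Fdps 1907 against 720 and the sterol carrier Stard4 2786 against 1096. Stard4 was under 2-fold, and 3 genes were higher, with DESeq2 size factors, TMM over 6 libraries or the trend removed. Of 24 measured genes of fatty acid uptake, 2 were lower and 1 higher, and the 2 were Mgll and Angptl4, an inhibitor of lipoprotein lipase, with 39 counts against 307.

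Mitosis had the highest median of the 46 lists. Of 35 measured mitosis genes, 30 were at least 2-fold higher in the IL4-labelled library and 1 was lower. Their median log2 fold was 2.23. The checkpoint kinase Bub1 had 491 counts in the IL4-labelled library and 39 in the M0 library and was 9.98-fold higher (7.20 to 14.2). The spindle protein Hmmr had 736 counts against 67 and was 8.71-fold higher (6.77 to 11.3), the kinesin Kif2c had 405 against 38 and the kinase Ttk 168 against 17. Top2a, which untangles DNA, had 3020 counts against 424 and was 5.64-fold higher (5.10 to 6.26), and the proliferation marker Mki67 had 5046 against 1440 and was 2.78-fold higher (2.62 to 2.95). Cenpa, the histone of centromeres, was the lower member, with 1378 counts in the IL4-labelled library and 2249 in M0.

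Of 30 measured genes of S phase, 17 were at least 2-fold higher and 0 lower, with a median log2 fold of 1.13. Ccne2 and Ccne1, the E-type cyclins, had 203 and 268 counts in the IL4-labelled library against 17 and 36 in M0. Uhrf1, which copies DNA methylation to new strands, had 912 counts against 83 and was 8.71-fold higher (6.95 to 11.0), and Pole, a replicative polymerase, had 348 against 44. The helicase subunit Mcm5 had 1505 counts against 286, while the clamp Pcna had 6837 against 4052, 1.34-fold higher (1.29 to 1.39).

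Among 21 measured cyclins and inhibitors of cyclin-dependent kinases, 5 were higher and 2 lower, with genes of opposed roles on the same side. Ccnd1, the G1 cyclin that growth factors induce, had 18308 counts in the IL4-labelled library and 966 in M0 and was 15.02-fold higher (14.1 to 16.0), and Ccnd2 had 340 against 52. The inhibitor gene Cdkn2a (p16 and p19ARF) had 462 counts against 16 and was 22.9-fold higher (13.9 to 40.4), and its neighbor Cdkn2b had 216 against 30. Cdkn1c, another inhibitor, had 20 counts in the IL4-labelled library against 421 in M0 and was 26.6-fold lower (17.0 to 43.9). The proto-oncogene Myc, counted with the immediate-early genes, had 468 counts against 97, while the dual-specificity phosphatase Dusp5 had 126 against 397 and the RNA decay factor Zfp36 2864 against 5668.

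Many mitosis genes hold a CHR element, to which the MuvB complex binds. The letters TTTGAA on either strand stand in the windows of 23 of the 30 mitosis genes with an entry and 4 of the 24 S phase genes, against 20.2% of all 27025 genes. They are shown for 3 mitosis genes with a match before the start site, in capitals, 5′ to 3′ on the gene's strand, all from the minus strand, at chr4:117178850-117178910, chr11:99024190-99024247 and chr10:69352913-69352962. Cdk1, the kinase that starts mitosis, had 1576 counts in the IL4-labelled library and 687 in M0 and was 1.82-fold higher (1.66 to 1.99).
Kif2c: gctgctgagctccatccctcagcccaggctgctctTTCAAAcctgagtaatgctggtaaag
Top2a: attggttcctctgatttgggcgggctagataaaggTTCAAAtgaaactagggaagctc
Cdk1: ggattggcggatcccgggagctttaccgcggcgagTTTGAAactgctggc

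Chemokine ligands differed in both directions. Of 17 measured chemokine ligands, 7 were at least 2-fold higher and 4 lower, with a median log2 fold of 0.60. The CCR2 ligands Ccl2, Ccl7 and Ccl12 had 2770, 1499 and 408 counts in the IL4-labelled library against 113, 62 and 35 in M0. Ccl2 was 19.4-fold higher (16.1 to 23.7) and Ccl7 19.2-fold higher (14.9 to 25.1). Cxcl2, which draws neutrophils, had 555 counts against 102, Ccl4 had 1399 against 282, Cxcl14 had 539 against 76, and Ccl6 had 67721 against 13480. The lower ones were Cxcl10 and Ccl5, with 21 counts in the IL4-labelled library and 189 in M0, together with Ccl8 (6 against 20) and Cx3cl1 (36 against 89). The receptor Ccr2 had 99 counts against 562 and was 7.16-fold lower (5.78 to 8.96), opposite in direction to its ligands. Of 19 measured chemoattractant receptors, 7 were lower and 1 higher; Cxcr4 had 1820 counts against 7416, Ccr1 1023 against 2006 and Ccr3 138 against 310, while the formyl peptide receptor Fpr1 had 2262 against 158 and was 11.3-fold higher (9.65 to 13.4).

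Inflammatory cytokines did not move as a block. Tnf had 1314 counts in the IL4-labelled library and 178 in the M0 library and was 5.85-fold higher (4.999 to 6.881), while Il1b had 14 against 305 and was 27.5-fold lower (16.1 to 50.9). Of 25 measured cytokines 6 were higher and 5 lower, and of 21 measured M1 markers 4 were higher and 11 lower. The angiogenic factor Vegfa had 996 counts against 3044, the B cell factor Tnfsf13b 27 against 51, and Csf1 99 against 183. The prostaglandin enzyme Ptgs2 had 5 against 26, and Cd38, an NAD-consuming ectoenzyme, had 968 against 149. The LPS and interferon-γ library held far more of several of these genes, with 185721 counts of Il1b and 17126 of Tnf.

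Receptors for uptake differed in both directions. Of 19 measured scavenger receptors 6 were higher and 5 lower. Marco, which binds bacteria and particles, had 47374 counts in the IL4-labelled library and 1969 in M0 and was 19.1-fold higher (18.2 to 19.96). Fcna, a ficolin of the lectin pathway, had 6682 counts against 759, and Folr2, a folate receptor of resident macrophages, had 8410 against 1522. Msr1, the class A scavenger receptor, had 32517 against 9882. On the other side Timd4, a receptor for phosphatidylserine, had 13 counts against 71, Cd5l 928 against 2134 and Vsig4, a complement receptor, 46 against 99. Fcrls, an Fc receptor-like protein, had 7736 counts against 12342, and was under 2-fold when scaled by total counts.

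Of 18 measured receptors of efferocytosis and the TREM family, 5 were higher and 5 lower. The higher ones included Trem1, which amplifies inflammatory signals, with 327 counts in the IL4-labelled library and 13 in M0 (19.9-fold, 11.5 to 37.8), Trem3 with 54 against 3, Cd300lf with 697 against 67 and Treml4 with 136 against 34. Axl, the receptor kinase for Gas6 that clears dying cells, had 163 counts against 1891 and was 14.6-fold lower (12.5 to 17.3), while Gas6 had 74722 against 36846. Of 14 measured C-type lectin receptors 6 were lower and 1 higher; beside Mgl2 and Clec10a, the β-glucan receptor Clec7a had 2657 counts against 5673, Clec4a3 had 1918 against 5048, and Clec4b1 36 against 139. The DNA sensor Tlr9 had 395 counts in the IL4-labelled library and 2782 in M0 and was 8.89-fold lower (7.995 to 9.899), and Ly86, a partner of RP105, had 4113 against 8204; with Clec7a they were the 3 lower of 26 pattern recognition receptors, of which 1 was higher. Of 8 measured Fc receptors 3 were lower and 0 higher. The membrane proteins Tmem176a and Tmem176b, which are paralogs and neighbors, had 616 and 1937 counts in the IL4-labelled library against 3924 and 11472 in M0, and with Ms4a4c (54 against 528) and Ms4a4a (7847 against 17607) were the 4 lower of 11 genes of their list, of which 2 were higher. Of 17 measured complement genes 5 were lower and 1, Cd55, was higher; C3 had 3439 counts against 7847 and Cfb 64 against 350.

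Transcription factors of the macrophage lineage gave 0 higher and 8 lower genes of 32 measured. Nfil3, a bZIP repressor, had 147 counts in the IL4-labelled library and 1051 in M0 and was 9.02-fold lower (7.58 to 10.8). Batf3, which forms dimers with JUN proteins, had 15 against 71 and Nr4a1, an orphan nuclear receptor, had 213 against 645. Of 15 measured osteoclast and fusion genes 4 were lower, among them Dcstamp, needed for cell fusion, with 16 counts against 179. Matrix proteases and coagulation genes split evenly, with 4 of 21 on each side. The urokinase Plau had 12743 counts in the IL4-labelled library against 2019 in M0 and Adam8 47908 against 11470, while the clotting factors F10 and F7 had 8 and 4 counts against 211 and 60. Itga8 was the integrin that was higher, with 1094 counts against 211. Hmox1, which degrades heme, had 65831 counts in the IL4-labelled library against 19026 in M0 and was 2.74-fold higher (2.70 to 2.79).

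Lists of other basic functions held few genes past 2-fold. Of 30 ribosomal protein genes none was past 2-fold, but 29 had a log2 fold under 0 and the median was -0.37, which was -0.31 with the trend removed. None of 30 respiratory chain genes and none of 23 genes of ER chaperones and the unfolded protein response was past 2-fold, with medians of 0.18 and -0.04. Of 35 lysosome genes 3 were lower, among them Psap, the precursor of the saposins, with 279507 counts in the IL4-labelled library and 576399 in M0. Of 30 glycolysis and hypoxia genes 1 was higher and 3 were lower, shares near those of all genes. The same held for the ATF4 response with 1 of 22 genes higher and 1 lower, for iron and heme with 1 and 1 of 16, and for antioxidant targets of NRF2 with 2 higher, Hmox1 and the transferase gene Gsta3 (827 counts in the IL4-labelled library, 203 in M0), and 1 lower of 20. Of 18 amino acid transporters 3 were lower and 0 higher.

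Markers of macrophages were high in both libraries. All 30 listed were measured, 1 was higher and 4 lower, with a median log2 fold of -0.06. Lyz2, the macrophage lysozyme, took the most counts of any gene, 3.59% of the IL4-labelled library and 2.73% of M0. Adgre1, which encodes F4/80, had 91627 counts in the IL4-labelled library and 74250 in M0, Cd68 58551 and 38559, and Itgam 61844 and 42874. Among the 4 lower were Apoe, the Fc receptor Fcgr1, with 2766 counts against 6807, and Csf1r, the CSF1 receptor, with 114905 against 250608.

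Among measured markers of other cells, more were at least 2-fold lower in the IL4-labelled library than higher. Some of the lower ones, such as Ngp and Col1a1, were measured through their M0 counts alone. Lymphocyte markers at 0 numbered 9 in the IL4-labelled library and 11 in M0. Fibroblast markers (3 and 5) and endothelial and epithelial markers (5 and 7) went the same way. Neutrophil (8 and 4), dendritic cell (5 and 3) and erythroid and platelet markers (9 and 7) went the other way. Some genes of these lists that macrophages also express were abundant in both libraries. Of 15 neutrophil markers 6 were measured and 5 of these were lower, with 0 counts of Ngp in the IL4-labelled library against 90 in M0; the summed TMM-scaled level of the list was 98.5 CPM against 178 CPM, with Csf3r at 1973 counts against 3180, and Ly6g and Elane were at 0 in both. Of 14 monocyte markers 10 were measured, 4 lower and 1 higher, and their sum was 592 CPM against 2470 CPM, with Thbs1 at 1497 counts against 67465. Without Thbs1 the sum ran the other way, with 557 CPM in the IL4-labelled library and 457 CPM in M0. Of 19 fibroblast and matrix markers 6 were measured and 4 were lower, with Col1a1 at 1 count in the IL4-labelled library against 30 in M0 and Col1a2 at 8 against 84; the sums were 1460 CPM and 1220 CPM, and 4.36 CPM and 7.65 CPM without Vim. Of 16 lymphocyte markers the 2 measured ones, Cd4 with 77 counts against 1517 and Cd79b with 36 against 107, were lower, while Cd3e was at 0 in both. The sums were 2.74 CPM and 48.4 CPM, but Cd4 alone made up 77 of 116 counts in the IL4-labelled library and 1517 of 1625 in M0. Of 14 dendritic cell markers 5 were measured and 2 lower, and their sum was 305 CPM against 224 CPM, with 369 counts against 472 without Bst2; Flt3 was at 0 in both libraries and Zbtb46 had 25 counts against 14. None of 12 mast cell and basophil markers was measured, and Cpa3 and Mcpt8 were at 0 in both. Of 14 endothelial and epithelial markers 4 were measured and 3 lower, with sums of 57.1 CPM and 123 CPM. Of 13 erythroid and platelet markers 3 were measured, 1 of them lower, with sums of 1040 CPM and 640 CPM, and of 4.03 CPM and 4.26 CPM without Pf4. The part of these cells in the MHC class II, interferon and other differences was not tested, and in pooled RNA fewer cells of a type and less RNA per cell cannot be told apart.

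The other pair, IL4-labelled over M0 with G-1 in both, shares no library with this one. It does cross the same sequencing sets, since the methods list both M0 libraries together and both IL4-labelled libraries together. A difference between these sets would be in both pairs and cannot be told apart from IL-4. The pair with G-1 gave 753 of 11233 measured genes (6.70%) that were higher by 2-fold or more. Lower by 2-fold or more were 686 (6.11%). Across the 10978 genes measured in both pairs, the log2 folds had a Spearman rho of 0.468, as a description. Of the 873 higher genes 788 were measured with G-1, and 255 of them (32.4%) were at least 2-fold higher there, which is 33.9% of the 753 higher genes of that pair. In the opposite direction, 22 of the 788 (2.79%) were lower by 2-fold or more. Of the 753 lower genes 597 were measured with G-1, and 236 of them (39.5%) were at least 2-fold lower there, which is 34.4% of the 686, while 22 (3.69%) were higher.

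Part of the difference was there in both pairs, which cross the same sequencing sets. With G-1, Ltbp2 had 705 counts in the IL4-labelled library and 10 in M0, Kap 153 and 0, Cdkn2a 246 and 2, Trem1 1483 and 75, Marco 27044 and 1417, and Ccl7 588 and 22. Kap had 0 counts in both LPS and interferon-γ libraries. Dmpk, a kinase gene known from muscle, had 12209 and 5306 counts in the IL4-labelled libraries without and with G-1, against 646 and 115 in the M0 libraries and 2 and 1 in the LPS and interferon-γ libraries. Ccnd1 had 14917 counts in the IL4-labelled library with G-1 and 3028 in M0 with G-1. Downward, Vcam1 had 5 counts against 115 in the pair with G-1, Mgll 3 against 445, Cd4 7 against 204, F10 30 against 533 and Cd74 149 against 764. The class II list had 4 of 12 measured members lower with G-1, and all of the chain genes H2-Eb1 (18 against 114), H2-Aa (12 against 124) and H2-Ab1 (51 against 190) were among them.

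Other lists had different values in the pair with G-1, and whether the pairs differ was not tested. Of 35 mitosis genes 0 were higher and 0 lower with G-1 (median -0.10), and of 30 S phase genes 0 were higher and 1 lower (median 0.09). Top2a stood at 65.2 CPM in the IL4-labelled library and 11.7 CPM in M0, and at 40.1 CPM in the IL4-labelled library and 47.7 CPM in M0 with G-1, so that the M0 library without G-1 was the low one of the 4. Of 23 genes of sterol synthesis 0 were higher and 6 lower with G-1 (median -0.51). Of 16 genes listed for LXR or cholesterol efflux 2 were higher and 5 lower (median -0.15). Of 35 interferon-stimulated genes measured with G-1, 4 were higher and 0 lower (median 0.09). Ifit2 stood at 21.8 CPM in the IL4-labelled library and 149 CPM in M0, and at 13.2 CPM and 15.4 CPM in the same order with G-1, so that the M0 library without G-1 was the high one. Apoe stood at 5195 CPM and 19390 CPM without G-1, and at 3243 CPM in the IL4-labelled library and 2333 CPM in M0 with G-1. Clec10a and Irf4, lower in the IL4-labelled library without G-1, were scarce in both libraries with G-1, with 92 and 5 counts in the IL4-labelled library and 59 and 10 in M0. Of the 28 classical IL-4 markers 9 were measured with G-1, and 0 were higher and 2 lower. Their median log2 fold was 0.17 with G-1, against -0.83 without it. Among them, Mrc1 had 34853 counts in the IL4-labelled library and 19932 in M0 with G-1. The map of levels sets these values beside each other for 28 genes, and the plot of list medians shows mitosis far to the right near 0 on the axis for G-1.

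**Figure D4:**
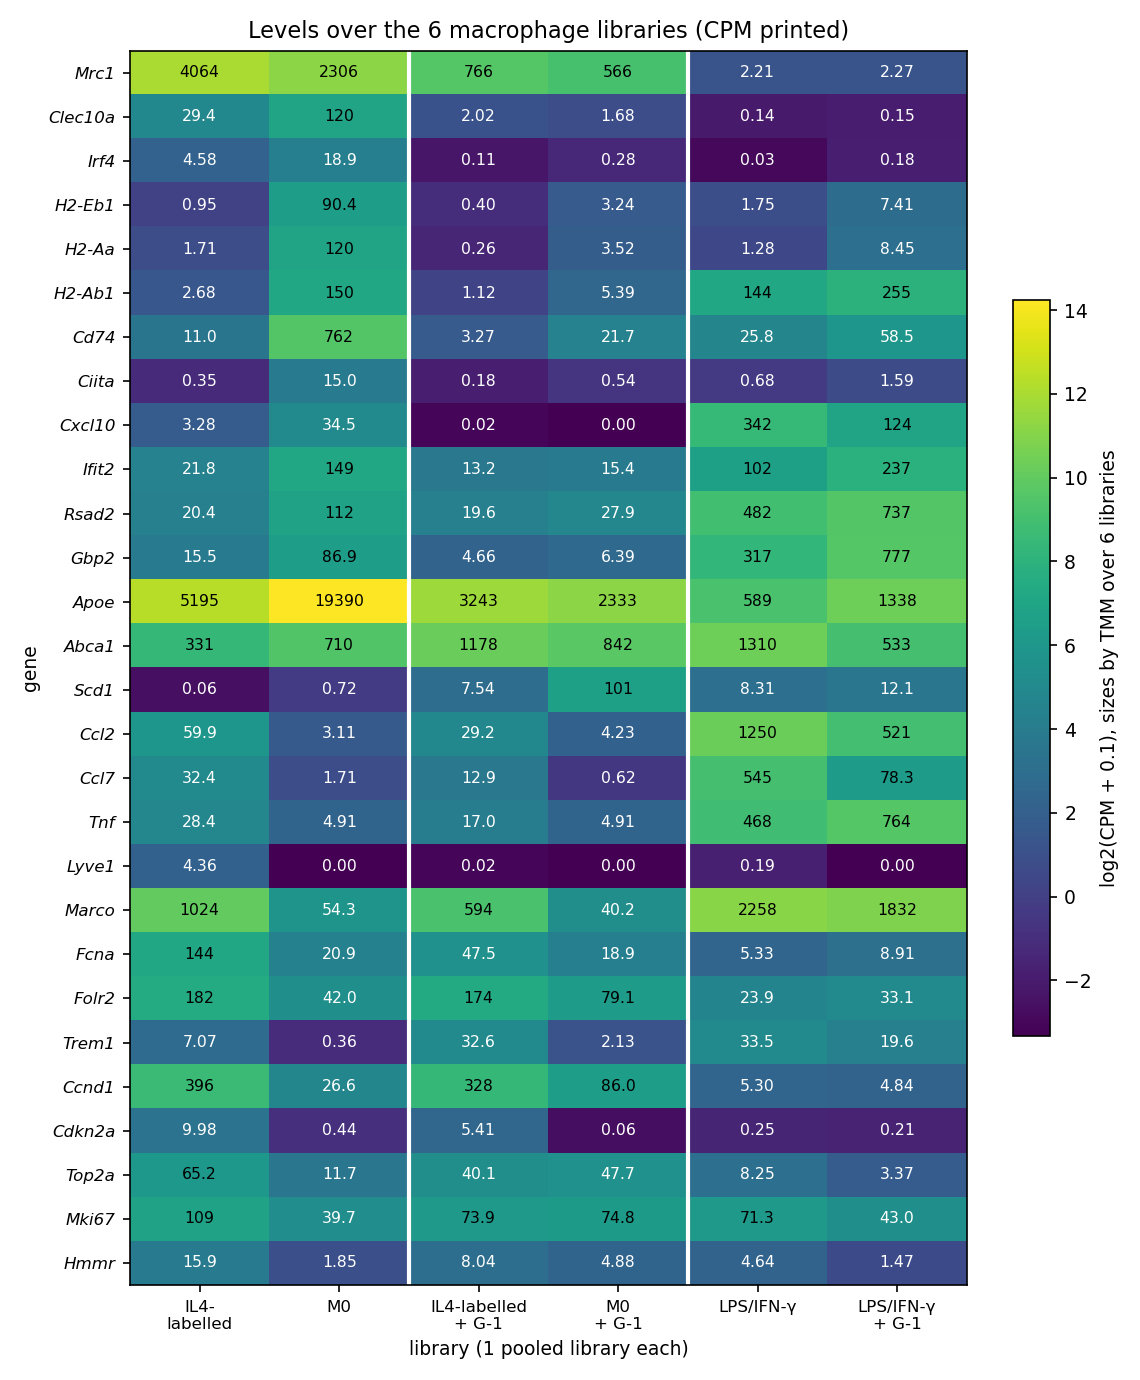
CPM, scaled by TMM over 6 macrophage libraries, of 28 genes in each library, with color for log2(CPM + 0.1); the IL4-labelled library stands left of its M0 library without and with G-1. Top2a is at 65.2 CPM in the IL4-labelled library, 11.7 CPM in M0 and 47.7 CPM in M0 with G-1, and Ifit2 at 21.8, 149 and 15.4 CPM in the same libraries.

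**Figure D5:**
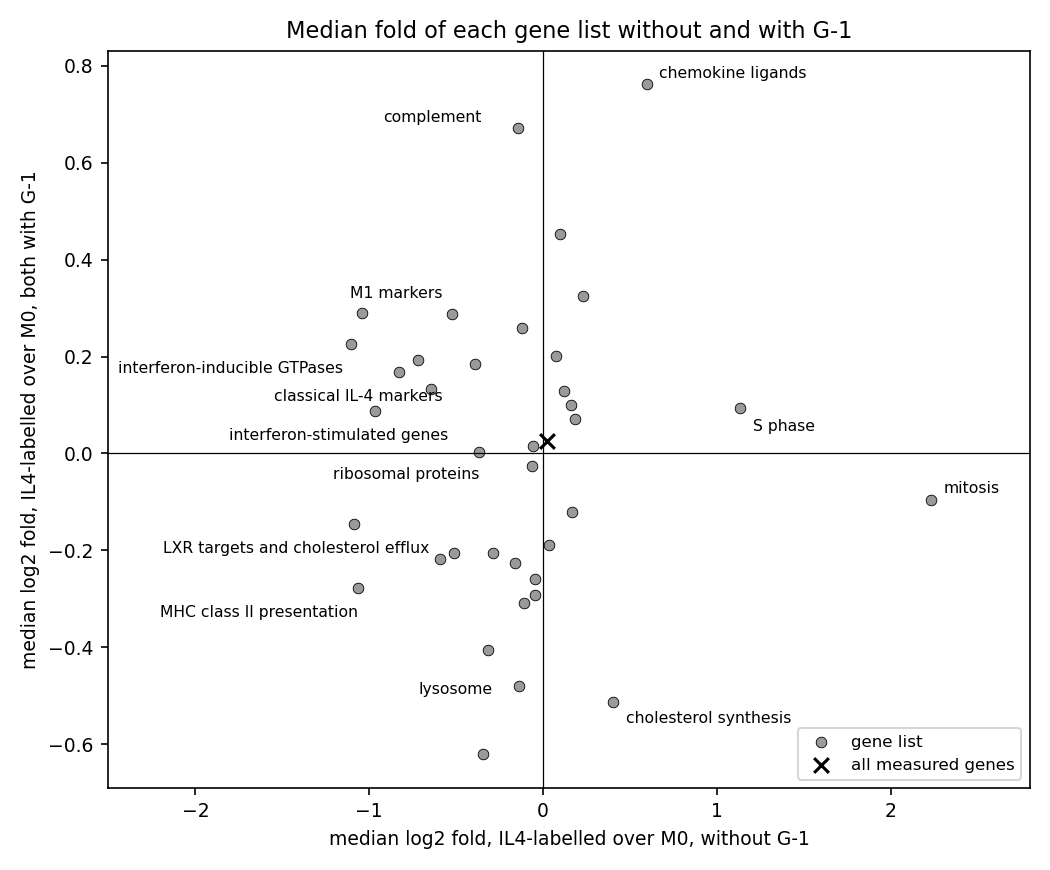
Median log2 fold of the IL4-labelled over the M0 library for each gene list, without G-1 (horizontal) and with G-1 in both libraries (vertical), with a cross for all measured genes. Mitosis has medians of 2.23 and -0.10, the interferon-stimulated genes -0.97 and 0.09, and chemokine ligands 0.60 and 0.76.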

How the data were processed

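The authors pooled RNA of 3 samples for each condition, after TRIzol extraction, and made libraries with the VAHTS Universal V6 kit for paired-end reading on a NovaSeq instrument. They deposited a table for each library that lists, by symbol, the whole-number count of reads of every gene. mm10 and DESeq2, with no version, are named in the submitters' processing notes. For the aligner, counter and strand setting, the sources used here give nothing. Reads of overlapping genes and of near-identical copies may therefore be shared. Total counts of the 6 macrophage libraries ran from 35027179 to 40671596.

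TMM factors of the pair came from edgeR 4.0.16 (R 4.3.3), and folds of IL4 over M0 and their exact binomial intervals from scipy 1.17.1, with pandas 2.3.3 and numpy 2.4.6, under Python 3.11.15. Genes with at least 20 counts in the larger library were kept and called at 2-fold. With 1 library a side no test supports the values of the report, and each list is described by its counts and its median. Intervals cover counting error only. The calculation was tested on simulated data. Figures were drawn with matplotlib 3.10.9.

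Genes named are the 15 largest folds each way with at least 100 counts, where predicted genes were left out. All classical IL-4 markers, Gper1 and the study's M2 panel are named too. So are up to 4 members per list, taken by fold on the side of the list's median. Other genes were named after their values were seen. Members and lists were chosen with earlier results of these data known. Promoter windows and coordinates are RefSeq's on GRCm38.p6, and length and GC content come from GENCODE M21. For 219 symbols no RefSeq gene was matched. Alternatives tried were DESeq2 1.42.0 size factors, total counts, TMM over 6 libraries, minimums of 100 counts and of none, 5 counts added as a prior, the interval's near bound, a correction for length and GC content (running medians, 501 genes wide) and the study's threshold, which takes a DESeq2 p-value with both libraries as 1 group and has no replicate behind it. The 2 libraries labelled TEC were not used here. A few members of the lists are counted but not reported here by name.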

Additional observations from a re-analysis of the deposited data

Results flagged for a closer look

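Of the genes named, 3 were at least 2-fold different in opposite directions in the pairs without and with G-1. Ifi205 had a log2 fold of IL4-labelled over M0 of -2.78 without G-1 (18 counts in the IL4-labelled library, 98 in M0) and of 1.45 with G-1 (21 and 6). Ccr3 had -1.50 without G-1 (138 and 310 counts) and 1.31 with G-1 (288 and 91). Fcrls had -1.01 without G-1 (7736 and 12342 counts) and 1.53 with G-1 (122 and 33). Scaled by total counts, the log2 fold of Fcrls without G-1 was -0.89, under 2-fold. Each library is 1 pool, so the difference between the pairs was not tested.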

How the results depend on the processing

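With 873 genes at least 2-fold higher and 753 lower, other scalings gave 863 and 767 (DESeq2 size factors) and 862 and 768 (TMM over 6 libraries), and total counts 1050 and 633. Without the length and GC trend 808 were higher and 691 lower. The near bound of the interval past 2-fold left 542 higher and 502 lower, and the study's threshold in DESeq2, with both libraries as 1 group, left 160 higher and 165 lower. A minimum of 100 counts gave 587 higher and 490 lower, and no minimum 1243 higher and 1155 lower. Scaling by total counts left 5 lower interferon-inducible GTPases of 8 and 1 lower gene of IL-4 receptor signaling of 2. This second count was also 1 with the trend removed. Of the 2 higher MS4A and TMEM176 genes 1 was left with DESeq2 size factors, TMM over 6 libraries, a prior count of 5 and the trend removed, and 0 higher ATF4 genes of 1 with the trend removed. Of 144 named genes past 2-fold, 134 to 143 stayed past 2-fold under these 5 settings of scaling, prior and trend. All 144 kept their sign. Genes picked for being past 2-fold had little room to change sign there, so this is no check on direction. The cause of these shifts was not tested. No paired analysis was possible because each group has 1 library, and for the same reason no replicate could be left out. Depth limits genes with few counts, where the intervals are wide. With the trend removed, lower scavenger receptors went to 7 (5 with the trend), C-type lectins to 7 (6), osteoclast genes to 5 (4) and immediate-early genes to 4 (6), higher cholesterol synthesis genes to 3 (4), and the cytokine median to -0.32 (-0.64). The counts of other lists moved by at most 1 gene in either direction, apart from the list for LXR and cholesterol efflux. Medians near 0 then changed sign, such as those of MS4A and TMEM176 genes (0.07 to -0.11) and of glycolysis and hypoxia genes (-0.05 to 0.05).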
